A study of Mus musculus with 8 samples.

Results

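The cytokine leukaemia inhibitory factor (LIF) holds mouse embryonic stem cells (mESCs) in self-renewal, and the genes described here encode the receptors, ligands, kinase, transcription factor and inhibitor of that signal. The 10 genes Cntfr, Lifr, Il6st, Osmr, Il6ra, Lif, Clcf1, Jak1, Stat3 and Socs3 were taken by name from the 19429 genes of the deposited RNA-seq table, and each name matched 1 row. They were chosen by pathway around Cntfr, and Cntfr itself was selected on the authors' own comparison of the genotypes, whose values are neither used nor printed here. Libraries came from derivatives of the mESC line LF2 grown in serum with LIF. WT cells carried wild-type TET1, and D2018A cells carried TET1 with an aspartate near its C-terminus changed to alanine in both gene copies, a change the study made to weaken binding to the O-GlcNAc transferase OGT. TET1 bore a C-terminal FLAG tag in both genotypes, every line was grown from a single edited cell, and the study found a deletion away from the cut site in WT but not in D2018A cells. The labels describe 4 WT libraries from lines 2 and 5 and 4 D2018A libraries from lines 7 and 8, with 2 technical replicates of each of the 4 lines.

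In this pathway a cytokine bridges 2 or more receptor chains at the cell surface. LIF joins LIFR to gp130, the shared chain encoded by Il6st, while CNTFR and IL6RA are ligand-binding chains that bring other cytokines of the family to the same gp130. The chains have no enzyme activity of their own, so the kinase JAK1 bound to them phosphorylates their tails and the transcription factor STAT3, which then enters the nucleus. SOCS3 is made in response to STAT3 and shuts the receptor off. Cytokine-like factor CLCF1 signals through CNTFR with LIFR and gp130, and OSMR is the chain through which oncostatin M signals with gp130.

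For each gene the file used here gives 1 value, the authors' mean normalised count, which is the number of reads on the gene divided by a size factor of each library and averaged over the libraries of the authors' fit. It has no standard deviation, no n and no value per genotype, so the levels below describe WT and D2018A cells pooled and no difference between them is given. Fewer cells expressing a gene and less RNA per cell cannot be told apart in such bulk samples. The smallest means fell on 12 values that 1 read in 1 library produces, each shared by between 38 and 123 genes, where the labels describe 8 libraries. This number rests on asking for at least 30 genes at a value, since asking for 20 gave 14 values and asking for 50 gave 5. If steps mark libraries, 4 in the authors' fit were not among those described, and what they hold was not analysed here. The size factors read from these steps ran from 0.726 to 1.47, a 2.03-fold range of depth, and the means summed to 10937569 normalised counts. Intervals in brackets on levels are exact Poisson limits of 95% on the mean times 12. Those on ratios are exact binomial limits of 95% on the counts of both genes, scaled by their lengths. All these intervals cover counting error only, not the spread between libraries, and would be wider if fewer libraries entered the mean.

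The sequences that can be shown for these genes are promoter windows of RefSeq on GRCm38.p6, which run from 250 bases before to 50 bases after an annotated start. Of the 10 genes, 9 had a window and Clcf1 had none. Cntfr had 6, more than any of the others, and the 2 printed here are those furthest apart in CpG ratio among its windows with no annotated exon base upstream of the start. They are printed 5′ to 3′ as the 250 bases before the start, on the minus strand, with CG pairs in capitals. The first lies at chr4:41689181-41689430 and the second at chr4:41695454-41695703.
Cntfr, start within the gene: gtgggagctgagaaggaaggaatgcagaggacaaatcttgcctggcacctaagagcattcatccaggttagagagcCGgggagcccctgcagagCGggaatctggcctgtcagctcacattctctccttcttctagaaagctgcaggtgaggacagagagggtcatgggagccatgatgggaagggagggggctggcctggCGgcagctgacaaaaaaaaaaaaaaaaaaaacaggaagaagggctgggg
Cntfr, start near the 5′ end: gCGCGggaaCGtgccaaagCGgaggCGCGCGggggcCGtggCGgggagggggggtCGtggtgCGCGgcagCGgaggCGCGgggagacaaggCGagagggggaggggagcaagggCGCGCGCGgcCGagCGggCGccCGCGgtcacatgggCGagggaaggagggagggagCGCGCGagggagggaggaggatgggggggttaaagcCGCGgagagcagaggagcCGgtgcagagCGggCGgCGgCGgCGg

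The first stretch holds 3 CG pairs and the second 37 in the same 250 bases. CG pairs are sites that can carry 5-methylcytosine, the substrate of TET1, but methylation of these stretches was not analysed here. Over the whole 300-base windows the observed to expected CpG ratio was 0.167 for the first and 1.2 for the second, against a median of 0.384 over all 32851 windows of 27025 genes. Only 23.5% of all windows had a ratio below the first, while 99.6% lay below the second. The other 4 Cntfr windows, which overlap each other or the second, had ratios from 0.475 to 1.17. Reads were counted per gene, so the level of Cntfr given below is the sum over all its starts.

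Among the 15 windows of the 9 genes, 12 lay above the median CpG ratio. Il6st had 0.943, Jak1 0.947, Il6ra and Socs3 0.769 each, Osmr 0.705 and Stat3 0.545. Lifr had a window at 1.07 and another at 0.188. Lif, with 0.231 and 7 CpG sites in its window, was the only gene of the 9 with no window above the median. Osmr and Socs3, the lowest and the highest of the 10 genes in level, both had windows above the median. All 250 bases before the Osmr start lie in annotated exons of Osmr, and 77 of those before the Socs3 start lie in exons of Socs3. These windows therefore include transcribed sequence, and a relation of CpG ratio to level was not tested.

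**Figure D1:**
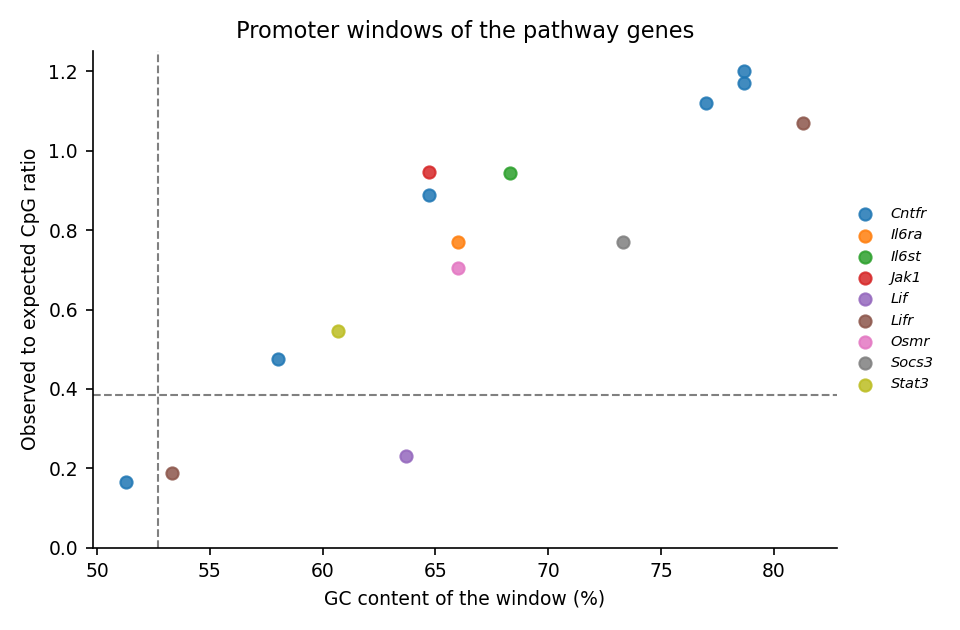
GC content in percent (x) and observed to expected CpG ratio (y) of the 15 RefSeq promoter windows of 9 pathway genes, 1 point per window, with dashed lines at the medians of all 32851 windows (52.7% and 0.384). Of the 3 points below the horizontal line, 1 each belongs to Cntfr, Lifr and Lif, and 3 Cntfr windows and 1 Lifr window stand at the upper right with ratios from 1.07 to 1.2.

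Each window was also searched for TTCNNNGAA, the palindromic motif that STAT proteins bind, which reads the same on both strands. It occurred in 8.3% of all windows. Among the windows of the 9 genes it occurred in 1, that of Socs3, at positions -154 to -146 relative to the start. The motif is in capitals in the 30 bases around it, which lie on the minus strand at chr11:117969501-117969530.
Socs3: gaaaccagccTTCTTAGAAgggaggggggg

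The stricter form TTCCNGGAA, held by 1.15% of all windows, was in none of the 15. Of the 12 Stat3 target genes on the list used below, 9 had a window, and the motif was in the window of Socs3 and in no other. A match shows that the letters are there, and the lack of one says nothing about binding elsewhere at a gene.

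Levels are compared between genes as the authors' mean normalised count per kilobase of annotated exon. They spanned 2493-fold across the 10 genes, from Socs3 at the top to Osmr at the bottom. The median of the 10 genes was 88.2 per kilobase, against 24.5 over the 16931 protein-coding genes with a value and a length. Of the 10 genes, 7 lay above that median. The lowest mean of any gene in the deposited data was 0.0565, so genes without reads are not in this reference. The percentages of protein-coding genes given below refer to the same genes. The 4 signalling genes that LIF needs, Lifr, Il6st, Jak1 and Stat3, lay between 97.7 and 232 per kilobase. The 2 ligands and Osmr were the 3 lowest.

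**Figure D2:**
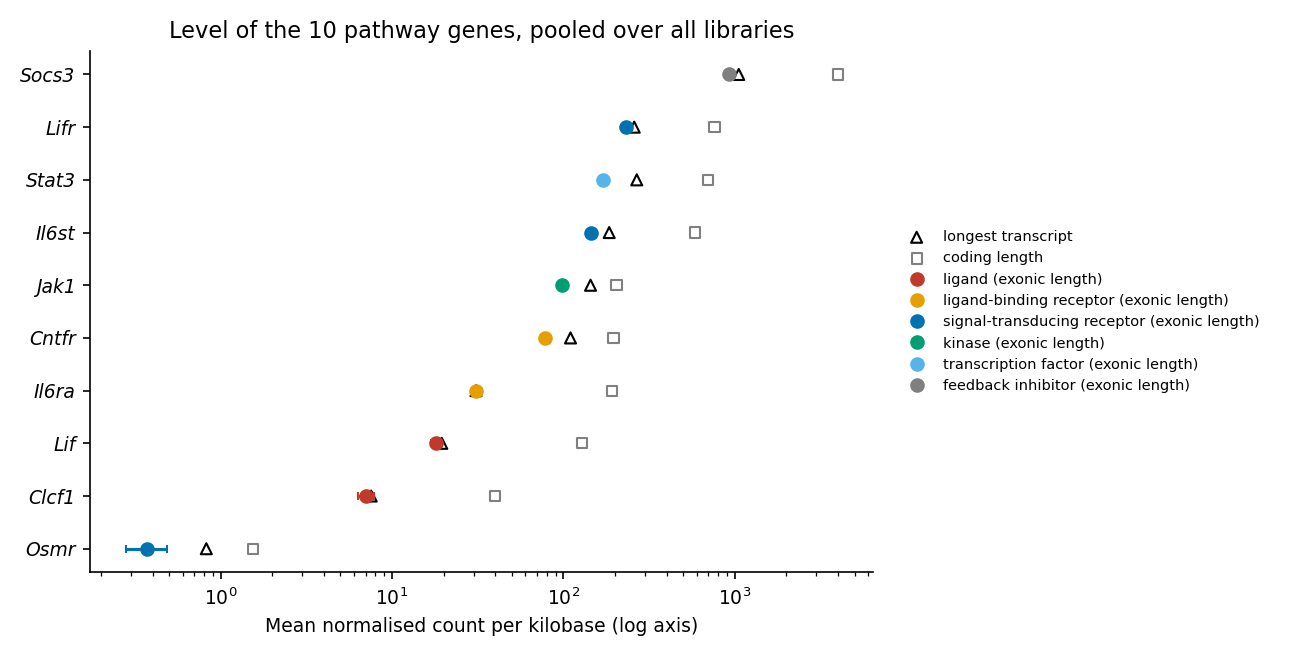
Mean normalised count per kilobase (x, log axis) of the 10 genes (y, ordered by level), pooled over all libraries. Filled points use the length of all annotated exons, coloured by role, with bars for 95% counting intervals, and open triangles and squares use the longest transcript and the coding length. Points fall from 931 for Socs3 to 0.373 for Osmr, and the squares of Cntfr and Il6ra nearly coincide at 196 and 193.

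Lifr (ENSMUSG00000054263, chromosome 15, 7129559 to 7197489, plus strand) was the most abundant of the receptor genes. Its mean was 2498 normalised counts (2470 to 2526), or 232 per kilobase (229 to 234), above 87.0% of protein-coding genes. Its receptor partner Il6st (ENSMUSG00000021756, chromosome 13, 112464070 to 112510086, plus strand) had a mean of 1607 (1584 to 1630), or 145 per kilobase (143 to 147). The ratio of Lifr to Il6st per kilobase was 1.60 (1.57 to 1.63), and it was 1.4 with the longest transcript and 1.31 with the coding length. Together they made up 74.8% of the summed level per kilobase of the 8 receptor genes of the family.

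Osmr (ENSMUSG00000022146, chromosome 15, 6813577 to 6874969, minus strand) stood apart from these. Its mean was 4.52 normalised counts (3.38 to 5.87), which corresponds to between 40 and 80 reads in all if 12 libraries entered the mean, and it was the only gene of the 10 under a mean of 10. Per kilobase its level was 0.373 (0.279 to 0.485), above 12.5% of protein-coding genes. Lifr exceeded it by 621-fold per kilobase (478 to 831), and by 314-fold with the longest transcript. At this depth Osmr reads were few but above the lowest mean of the table, 0.0565.

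Cntfr (ENSMUSG00000028444, chromosome 4, 41657498 to 41697089, minus strand) encodes the chain that binds ciliary neurotrophic factor and is held in the membrane by a lipid anchor. Its mean was 219 normalised counts (210 to 227), or between 1904 and 3865 reads if 12 libraries entered the mean. Per kilobase it reached 78.6 (75.6 to 81.6), above 69.5% of protein-coding genes and 15.6% of the summed receptor level. Il6st exceeded it by 1.84-fold per kilobase (1.77 to 1.92), or 2.98-fold with the coding length, and Lifr by 2.95-fold (2.83 to 3.07). Because Cntfr was selected on the genotype comparison, these pooled ratios and its rank need not hold in either genotype. None of the 2729 distinct 50-base stretches of its transcripts occurred in an annotated transcript of another gene. No other annotated gene's exons overlapped its exons. Matches outside annotated transcripts were not searched.

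Il6ra (ENSMUSG00000027947, chromosome 3, 89864059 to 89913196, minus strand), the other ligand-binding chain, had a higher mean of 267 normalised counts (258 to 276) but a longer exonic length, 8642 bases against 2782 for Cntfr. Per kilobase it was at 30.9 (29.8 to 32), so Cntfr exceeded it by 2.55-fold (2.42 to 2.68). With the coding length the ratio was 1.01, so the size of this difference depends on the length used. A further 242 exon bases of Il6ra, 2.80% of its exonic length, overlap the antisense gene Gm42809, and reads there cannot be told apart unless strand was used.

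**Figure D3:**
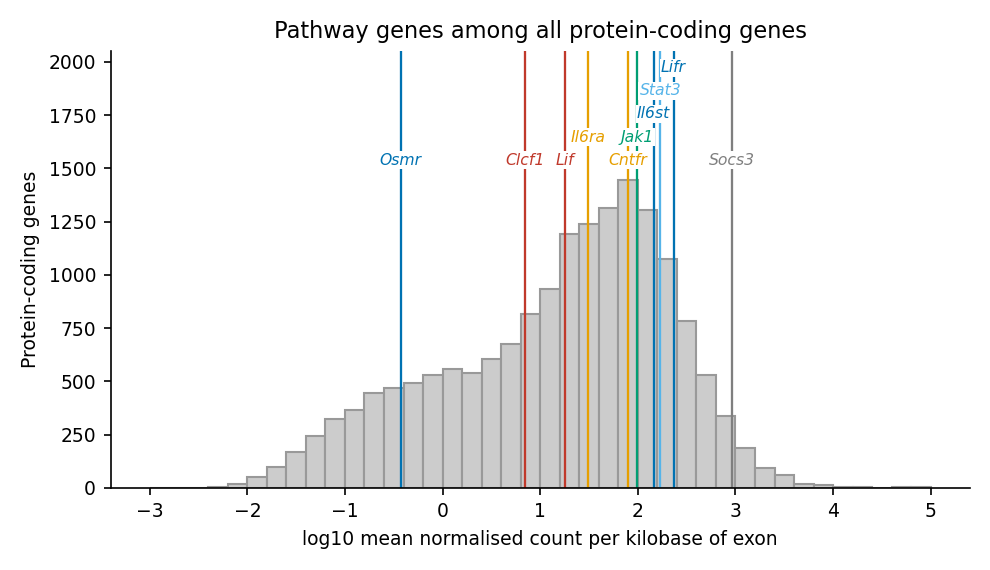
Number of protein-coding genes (y) by log10 mean normalised count per kilobase of exon (x), with a vertical line for each of the 10 genes, coloured by role as ligand (red), ligand-binding receptor (orange), signal-transducing receptor (dark blue), kinase (green), transcription factor (light blue) or inhibitor (grey). Socs3 lies in the upper tail, 5 genes from Cntfr to Lifr lie between percentiles 69.5 and 87.0, and Osmr lies in the lower shoulder.

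Both ligand genes were lower than the receptors they signal through. Lif (ENSMUSG00000034394, chromosome 11, 4257557 to 4272514, plus strand) had a mean of 78.3 normalised counts (73.4 to 83.5), or 18 per kilobase (16.9 to 19.2), above 45.1% of protein-coding genes. Lifr exceeded it by 12.9-fold per kilobase (12.1 to 13.8), and by 5.93-fold with the coding length. The medium contained recombinant LIF, so the level of the transcript does not measure the LIF that the cells received.

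Clcf1 (ENSMUSG00000040663, chromosome 19, 4214238 to 4223490, plus strand) had a mean of 26.8 (24 to 29.9), or between 234 and 474 reads on the same assumption. Per kilobase it was at 7.04 (6.30 to 7.86), above 34.1% of protein-coding genes, and Cntfr exceeded it by 11.2-fold (9.92 to 12.6), or by 4.93-fold with the coding length. Lif exceeded Clcf1 by 2.56-fold (2.25 to 2.91). Of the 50-base stretches of Clcf1, 6.77% also occur in another gene, and 311 of its exon bases are shared with AC109138.7, a protein-coding gene model on the same strand, so some Clcf1 reads may not have been assigned to it.

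Downstream of the receptors, Jak1 (ENSMUSG00000028530, chromosome 4, 101152367 to 101265282, minus strand) had a mean of 706 normalised counts (691 to 722), or 97.7 per kilobase (95.7 to 99.8). Stat3 (ENSMUSG00000004040, chromosome 11, 100885098 to 100939540, minus strand) had a mean of 1619 (1597 to 1642), or 170 per kilobase (168 to 172). Stat3 exceeded Jak1 by 1.74-fold per kilobase (1.70 to 1.78), and by 3.43-fold with the coding length. The levels of Stat3 and Lifr were close enough that their order turned with the length used, since Stat3 was 0.733 times Lifr per kilobase of exon (0.720 to 0.747) and 1.04 times Lifr with the longest transcript.

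Socs3 (ENSMUSG00000053113, chromosome 11, 117966079 to 117970047, minus strand), the feedback inhibitor, had the highest level. Its mean was 2692 normalised counts (2663 to 2722) and its level 931 per kilobase (921 to 941), above 97.5% of protein-coding genes. It exceeded Stat3 by 5.48-fold (5.38 to 5.58) and Il6st by 6.43-fold (6.32 to 6.55). Socs3 made up 72.8% of the summed level per kilobase of the 8 genes Socs1 to Socs7 and Cish, and 57.4% with the coding length.

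In the order of the 10 genes by exonic length the counting intervals of no 2 neighbours overlapped. With the other lengths 44 of the 45 pairs of genes kept their order, and the exception was Lifr and Stat3. With the coding length Jak1, Cntfr and Il6ra were close, at 204, 196 and 193 per kilobase. Counting intervals were not computed for that length, so the order of these genes is not settled there. The spread between libraries and lines, which is usually wider than counting error, could not be set beside these differences.

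The wider pathway was described with 5 lists that hold 56 genes between them. Of these, 54 had a value and 49, or 87.5% of the 56, had a mean of at least 10 normalised counts. The share was 73.2% among the 16950 protein-coding genes in the deposited data. The 2 listed genes without a value are counted as below this mean, so the shares do not have like denominators. All 11 Jak and Stat genes, all 16 inhibitors and all 12 Stat3 targets reached this mean, as did 6 of 8 receptors and 5 of the 8 cytokines with a value.

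Cytokine genes were low as a group against the protein-coding genes with a value. Their median was 11.1 per kilobase, and 2 of the 8 with a value lay above the protein-coding median. The highest were Ctf1, which encodes cardiotrophin-1, at 38.7 per kilobase, and Ebi3, a subunit of interleukin-27, at 25.9. Lif ranked below both with exonic lengths. The lowest were Il11 at 0.867 and Cntf, which encodes the ligand that names CNTFR, at 0.202 per kilobase. The mean of Cntf was 0.216 normalised counts. Il6 and Il27 had no value here.

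Among the receptors Lifr and Il6st were highest, and Osmr and Il31ra, a chain for interleukin-31, were lowest, with 0.314 per kilobase for Il31ra. The receptor median, 22.4 per kilobase, lay near the median of 24.5 of protein-coding genes with a value. Against those genes the family as a whole was not high, and 4 of its 8 genes were above that median.

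The Jak and Stat list had a median of 97.7 per kilobase. Its highest genes were Stat6 at 494 and Jak3 at 182, which act with other cytokine receptors, and its lowest were Stat5a at 19.3 and Jak2 at 7.59. Stat3 made up 18.1% of the summed level of the 7 Stat genes, or 32% with the coding length, and Jak1 23.9% of that of the 4 kinases. On the list of inhibitors, with a median of 84.1, Socs3 was followed by Pias2 at 376, an E3 ligase for SUMO, and the lowest were Socs6 at 18.4 and Socs5 at 18.

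The Stat3 targets known from mESCs were the highest list of the pathway. Their median was 788 per kilobase, and all 12 lay above the protein-coding median. The naive pluripotency factors Klf5, at 3473 per kilobase, and Klf4, at 2146, stood at its top, while Junb at 158 and Fos at 59.7, subunits of the AP-1 factor, stood at its bottom. Socs3 itself is on this list and lay near the middle of it.

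**Figure D4:**
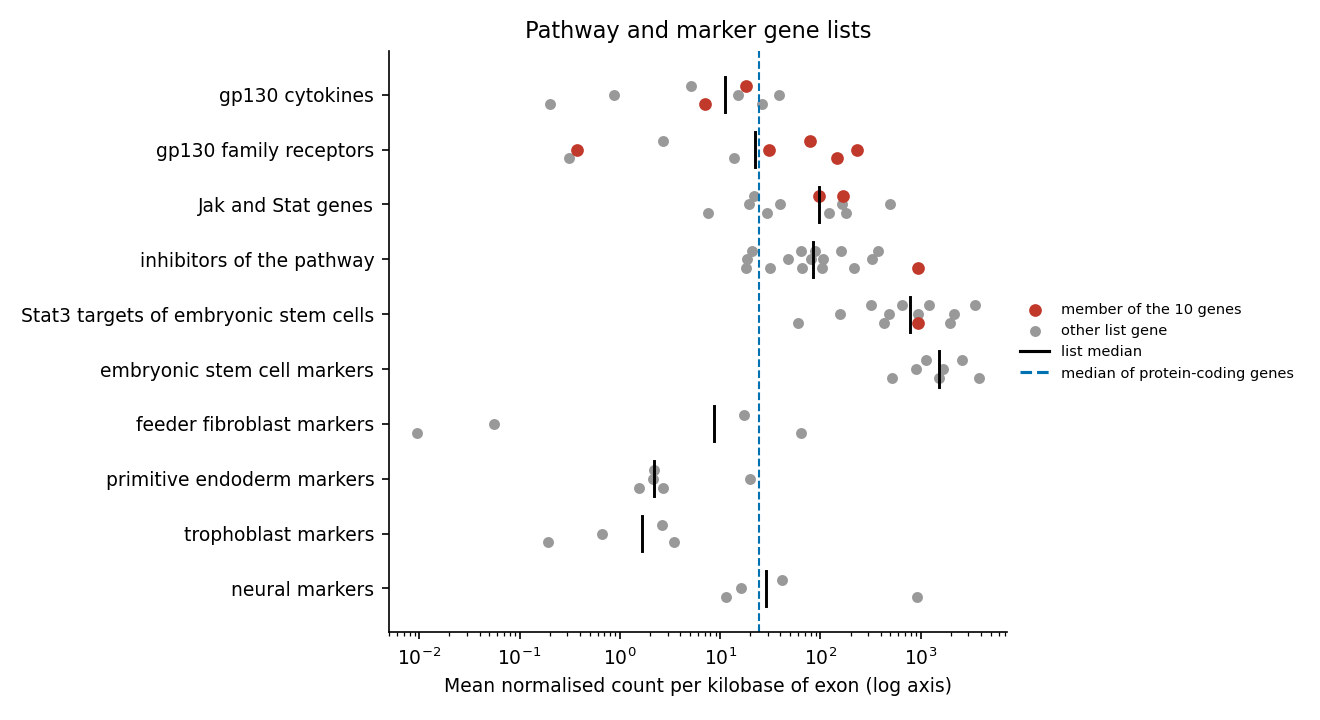
Mean normalised count per kilobase of exon (x, log axis) for the genes of 5 pathway lists and 5 cell type marker lists (y), 1 point per gene with a value, spread vertically for legibility. Red points are the 10 genes, black bars list medians, and the dashed line the protein-coding median of 24.5. Among the pathway lists the cytokines have the lowest median, 11.1, and the Stat3 targets the highest, 788, and of all 10 lists the trophoblast markers are lowest at 1.66 and the stem cell markers highest at 1527.

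Markers were read from the same pooled means to check the label of the cells. All 7 markers of embryonic stem cells, such as Pou5f1 at 894 and Nanog at 2572, lay between 520 and 3817 per kilobase. Of 6 markers of feeder fibroblasts 2 had a mean of at least 10, Thy1 at 194 and Col1a1 at 115 normalised counts, while Col1a2 was at 0.689, Col3a1 at 0.093 and Postn and Dcn had no value. Primitive endoderm markers had means from 5.16 to 76.8 and trophoblast markers from 1.13 to 18.8. Neural markers had means from 73.5 for Nes to 1736 for Tubb3. Per kilobase the neural median was 28.7, with 2 of the 4 genes above the protein-coding median of 24.5. Tubb3, at 929 per kilobase, lay within the range of the stem cell markers. The part of other cell types in the levels of the pathway genes was not tested.

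Several genes of the gp130 family lie beside each other in the mouse genome, and their levels were compared. Il11ra1, which encodes the ligand-binding chain for interleukin-11, begins 2899 bases from Cntfr on the other strand. Its level was 2.70 per kilobase, 29.1-fold below that of Cntfr (24.6 to 34.6). This ratio is uncertain, because 46.3% of the 50-base stretches of Il11ra1 also occur in other genes and reads shared between copies may not have been counted. The other protein-coding neighbour of Cntfr, Enho, was at 7.01 per kilobase, so Cntfr was the highest of these 3 genes.

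Il6st and Il31ra are separated by 9811 bases and lie on opposite strands. Il6st exceeded Il31ra by 460-fold per kilobase (307 to 758), or 703-fold with the coding length, with a mean of 1.78 normalised counts for Il31ra. Lifr and Osmr, 254589 bases apart in the coordinates of the table with no other protein-coding gene of the table between them, differed by 621-fold as given above. In contrast Lif and the oncostatin M gene Osm, 16530 bases apart and on the same strand, were within 1.19-fold of each other per kilobase (1.06 to 1.34), although the ratio was 2.95 with the coding length.

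Stat3 is the neighbour of the related genes Stat5a and Stat5b. Stat5a overlaps its end by 72 bases on the opposite strand, which is 0.756% of the exonic length of Stat3. Stat3 exceeded Stat5a by 8.79-fold per kilobase (8.36 to 9.25) and Stat5b by 4.31-fold (4.14 to 4.49). The ratio to Stat5b was 6.4 with the longest transcript and 7.57 with the coding length, so it depended on the length by more than its counting interval. Of the 50-base stretches 8.52% of those of Stat5a and 11% of those of Stat5b occur in other genes, against 0.555% for Stat3, so the levels of the Stat5 genes are the less certain.

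**Figure D5:**
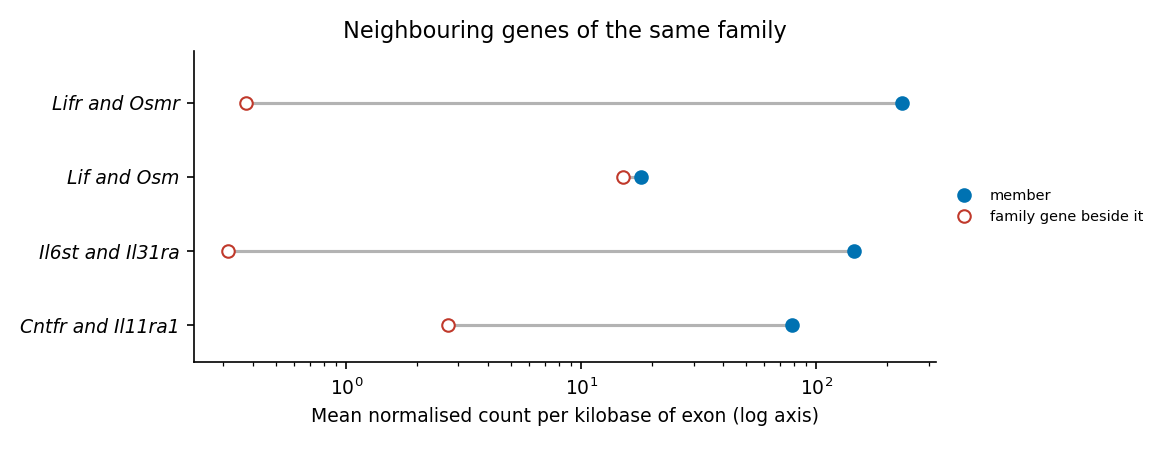
Mean normalised count per kilobase of exon (x, log axis) of 4 genes (filled) and of the gp130 family gene beside each in the genome (open), joined by a line. The 3 receptor pairs are far apart, by 29.1-fold to 621-fold, and the ligand pair Lif and Osm lies close together at 18 and 15.1. With the coding length, not plotted, the ratio of Lif to Osm was 2.95.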

How the data were processed

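RNA from 2 WT and 2 D2018A lines, with technical replicates, was depleted of ribosomal RNA, made into libraries with a total RNA kit and sequenced as single-end reads of 50 bases. Per the labels, the authors aligned reads to GRCm38.p6 and counted them per gene with STAR 2.5.3a, then normalised and compared genotypes with DESeq2 1.20.0. The deposited signal used here is the authors' mean of normalised counts per gene over all libraries of their fit. The remaining numeric columns hold the authors' log2 fold changes, standard errors, statistics, p-values and adjusted p-values for D2018A against WT, and none was used. The table used has no counts per library, so the planned count model between genotypes was not run. The number of other columns of values per sample was 0.

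Levels were divided by the union of exons in GENCODE vM21, which matched 19351 of the 19429 identifiers. Coordinates are those of the table, identical to the annotation for 9 of the 10 genes (Lifr starts at a lower position in the annotation) and for 17554 identifiers. A library step was a value shared by at least 30 genes that was no sum of 2 lower steps, with or without a further step added. The step finder was tried only on simulated Poisson counts from as many libraries as the steps found here. That trial therefore cannot settle how many libraries entered the authors' mean. Percentiles are shares of the protein-coding genes with a value in the deposited data that had a lower level. Genes without a value are not in that reference, and percentiles among all annotated genes were not computed. Shared stretches of 50 bases were counted on both strands over all annotated transcripts. Genes named beside the 10 were the 2 highest and 2 lowest of each list, neighbours of the same family, and marker genes. Family neighbours were added after their values were seen. The members and lists were chosen with earlier results of these data known. Computation used Python 3.11.15, pandas 2.3.3, NumPy 2.4.6 and SciPy 1.17.1.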

Additional observations from a re-analysis of the deposited data

How the results depend on the processing

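No paired analysis was possible because the table used holds 1 pooled mean per gene, and for the same reason no fit without a replicate was run. The median level of the 10 genes, 88.2 per kilobase of exon, was 127 with the longest transcript and 200 with the coding length, which are shorter than the union of exons. Their median percentile, 71.6, was 61.2 among protein-coding genes with a mean of at least 10, 74.8 among all genes with a length and 72.7 with the longest transcript. Single-read steps numbered 12, and 14 and 5 when a step needed 20 or 50 genes. The number of pathway genes over the minimum mean was 49 at 10, 51 at 3 and 40 at 100. The order of Lifr and Stat3 turned with the longest transcript.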
